A study of Mus musculus with 8 samples.

Results

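Ttr, Enpp2, Igfbp2, Igf2, Kl, Sostdc1, Folr1 and Prlr encode secreted proteins and receptors of the choroid plexus, the epithelium that makes cerebrospinal fluid in the brain ventricles. These 8 of the 24924 genes analysed were picked by symbol from the count table, and each was present in all 8 libraries. The choice was made with measured levels in view, because Ttr was the most abundant gene of the T cell libraries. Its level there is therefore a description and supports nothing further.

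RNA was sequenced from 2 sorted brain cell populations of aged C57BL/6 mice, T cells and microglia, the resident macrophages of the brain. The mice were 20 to 22 months old and received IL-5, a type 2 cytokine, at 2 µg per day for 2 days, or PBS as the vehicle. The 4 groups of 2 libraries each were T cells of IL-5 mice, T cells of PBS mice, microglia of IL-5 mice and microglia of PBS mice. Cells were sorted on surface markers that the labels do not name, and the labels do not say whether libraries came from separate mice. The p-values therefore measure the spread between these samples, which may be technical.

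Choroid plexus epithelial cells are polarised: they secrete carriers, growth factors and enzymes into the cerebrospinal fluid and take up vitamins and hormones from blood through receptors. Transthyretin, the product of Ttr, carries thyroid hormone and, with retinol-binding protein, retinol, and it is the classic marker of this epithelium. Neither T cells nor microglia are known as a main source of transthyretin.

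The sorted cells carried the markers of their labels. The summed level of 13 T cell markers was 4736 to 7844 CPM (counts scaled to a common total of counts on genes in each library) in T cells and 19.5 to 183 CPM in microglia. The summed level of 14 microglial markers was 103 to 184 CPM in T cells and 46759 to 63701 CPM in microglia. The microglial libraries also held 13627 to 17627 CPM of 10 neutrophil markers, against 0.757 to 38.5 CPM in the T cells. Each library held 23536908 to 30423828 counts on genes, so 3 counts correspond to at most 0.127 CPM and no member was limited by depth. Microglia IL-5 replicate 1 stood apart: 25.5% of its counts lay outside annotated genes, against 15.2 to 17.0% in the other 3 microglial libraries and 15.9 to 19.8% in the T cells.

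All 8 genes are protein-coding and lie on 6 chromosomes of the mouse build GRCm38. The secreted products are encoded by Ttr (chr18:20665280-20674321, + strand), Enpp2 (chr15:54838901-54952892, − strand), Igfbp2 (chr1:72824503-72852474, + strand), Igf2 (chr7:142650766-142666816, − strand) and Sostdc1 (chr12:36314139-36318452, + strand). Kl (chr5:150952607-150993817, + strand) encodes a membrane protein that is also shed. The receptors are encoded by Folr1 (chr7:101858331-101870788, − strand) and Prlr (chr15:10177238-10349180, + strand). Exon lengths ran from 1.19 kb for Ttr to 15.34 kb for Prlr.

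Exons of Enpp2 overlap Gm26684 and those of Igf2 overlap Igf2os, both on the opposite strand. Exons of Igf2 also overlap the protein-coding Gm49394, and those of Prlr the protein-coding Gm21973, on the same strand. Neither is among the genes analysed here, and how reads shared with them were counted is not known from the sources used here. With 2.29 CPM for Gm26684 and 0.222 CPM for Igf2os on average, the opposite-strand neighbours were far below the members, and how reads on either strand were counted is not given in the sources used here.

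Promoter sequence is shown for Kl and Prlr, because these members were called higher in T cells than in microglia and their transcripts have an entry in the RefSeq promoter table (GRCm38.p6). Each line gives the 250 bases before an annotated start, 5′ to 3′ on the gene's strand, with motif matches in capitals.
Kl, chr5:150952357-150952606, + strand: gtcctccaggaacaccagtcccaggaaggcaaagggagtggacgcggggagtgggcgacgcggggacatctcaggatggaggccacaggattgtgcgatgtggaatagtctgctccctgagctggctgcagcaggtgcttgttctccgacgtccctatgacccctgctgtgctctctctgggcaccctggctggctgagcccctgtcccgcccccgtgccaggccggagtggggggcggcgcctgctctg
Prlr promoter 1, chr15:10176988-10177237, + strand: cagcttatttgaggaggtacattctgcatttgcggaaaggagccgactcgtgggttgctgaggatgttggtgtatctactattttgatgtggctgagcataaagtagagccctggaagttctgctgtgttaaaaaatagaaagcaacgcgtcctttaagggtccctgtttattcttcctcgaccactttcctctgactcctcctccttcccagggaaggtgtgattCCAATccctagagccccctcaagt
Prlr promoter 2, chr15:10223656-10223905, + strand: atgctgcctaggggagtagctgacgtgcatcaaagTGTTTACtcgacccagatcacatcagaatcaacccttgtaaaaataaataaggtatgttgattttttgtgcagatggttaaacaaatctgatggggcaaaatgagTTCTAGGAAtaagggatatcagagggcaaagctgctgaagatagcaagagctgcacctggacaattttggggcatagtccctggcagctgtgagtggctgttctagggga
The 5 motifs searched on both strands were the OTX2-type TAATCC, the STAT5-type TTCNNNGAA, the forkhead GTAAACA, the TATA box spelled TATAAA and the CCAAT box. The Kl window held no match and had 66.8% G and C. Prlr promoter 1 held a CCAAT match that began 24 bases before the start, and 33.8% of all 32536 promoter windows hold one. Prlr promoter 2 held a TTCNNNGAA match 110 bases before the start, found in 7.04% of windows. It also held a forkhead match, read on the other strand, 215 bases before the start, found in 3.17% of windows. Prlr promoter 3 in the table (chr15:10293401-10293650, 32.8% G and C) held no match and is not printed. A match describes letters only. Igfbp2 and Igf2 also had entries, while Enpp2, Sostdc1 and Folr1 had none.

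Together the 8 genes took a large share of every library, and Ttr made up most of it. They accounted for 11.4 and 11.7% of gene counts in T cells of IL-5 mice and 8.44 and 5.94% in T cells of PBS mice. In microglia they accounted for 6.07 and 6.47% with IL-5 and 4.39 and 3.67% with PBS. Without Ttr the shares were 2.38 and 2.50% in IL-5 T cells, 1.93 and 1.43% in PBS T cells, 0.483 and 0.549% in IL-5 microglia and 0.401 and 0.316% in PBS microglia. In each cell type the lower of the IL-5 shares exceeded the higher of the PBS shares, with and without Ttr. In bulk RNA, fewer cells of a type and less RNA per cell cannot be told apart.

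**Figure D1:**
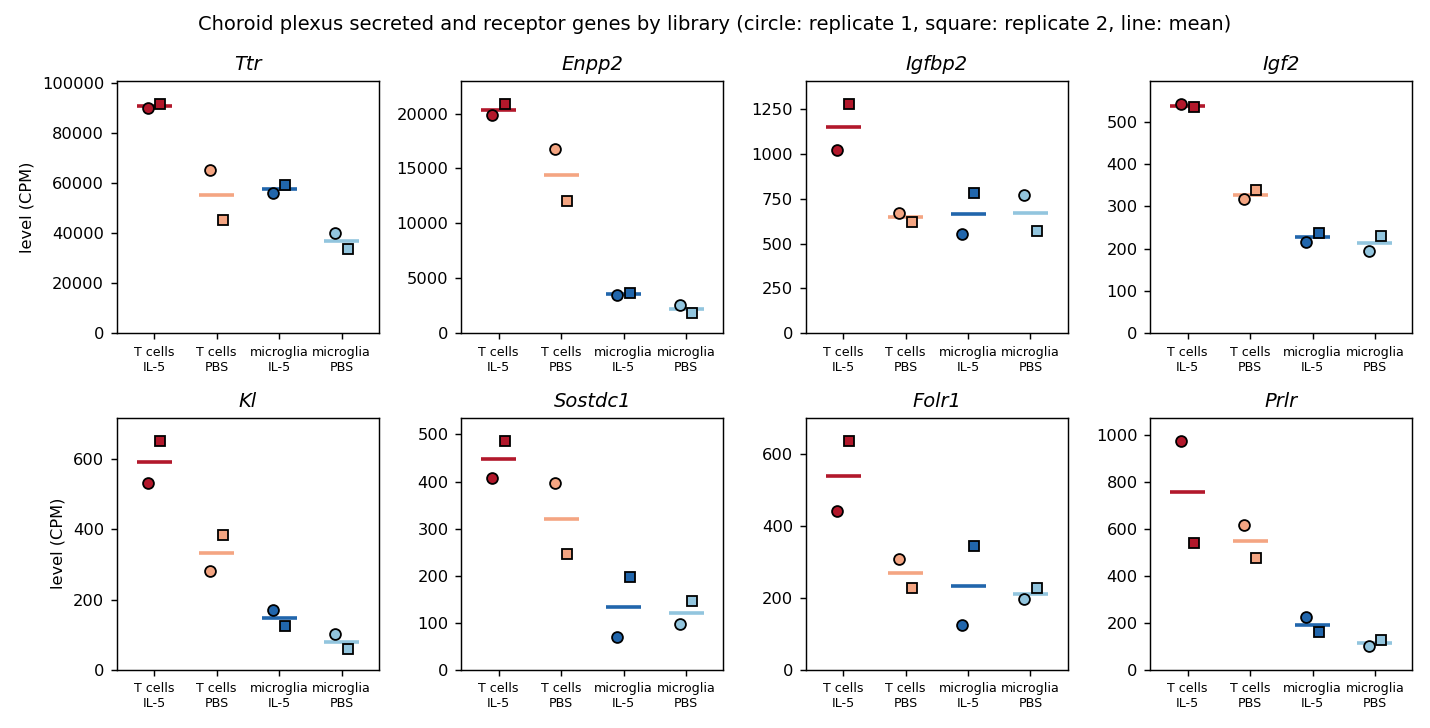
Level of each gene (vertical axes, CPM, each from 0 on its own scale) in the 4 groups along the horizontal axes; circles are replicate 1, squares replicate 2 and lines the group means. The IL-5 T cells are highest for Ttr, at 89983 and 91511 CPM, and Enpp2 is at 12007 CPM or more in T cells and at 3650 CPM or less in microglia.

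Ttr, the thyroid hormone and retinol carrier, was at 89983 and 91511 CPM in IL-5 T cells and at 65068 and 45089 CPM in PBS T cells. In microglia it was at 55913 and 59213 CPM with IL-5 and at 39917 and 33495 CPM with PBS. It ranked first of all genes in the 4 T cell libraries and in microglia IL-5 replicate 2, and second in the other 3 microglial libraries, below Cst3. The T cell and microglial ranges overlapped.

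Enpp2 encodes autotaxin, the secreted enzyme that makes lysophosphatidic acid (LPA). It was at 19842 and 20878 CPM in IL-5 T cells and at 16747 and 12007 CPM in PBS T cells, at rank 2 or 3 of all genes. In microglia it was at 3477 and 3650 CPM with IL-5 and at 2552 and 1801 CPM with PBS, at ranks 22 to 52. The lowest T cell library was above the highest microglial one, and within each cell type the IL-5 libraries were above the PBS libraries.

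Igfbp2 and Igf2 encode an insulin-like growth factor binding protein and the growth factor IGF2. Igfbp2 was at 1025 and 1280 CPM in IL-5 T cells, 673 and 622 CPM in PBS T cells, 552 and 781 CPM in IL-5 microglia and 770 and 568 CPM in PBS microglia. Igf2 was at 543 and 534 CPM in IL-5 T cells, 317 and 338 CPM in PBS T cells, 215 and 238 CPM in IL-5 microglia and 195 and 231 CPM in PBS microglia. For both genes the IL-5 T cells were highest in these CPM, and the IL-5 and PBS microglia overlapped. After TMM scaling for library composition, Igfbp2 was at 808 and 969 CPM in IL-5 T cells. In IL-5 microglia it was then at 864 and 954 CPM, which overlaps. Igf2 stayed highest in IL-5 T cells, at 428 and 405 CPM.

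Kl encodes Klotho, a coreceptor for the hormone FGF23 with a shed form in cerebrospinal fluid, and Sostdc1 encodes a secreted antagonist of BMP and Wnt signals. Kl was at 532 and 653 CPM in IL-5 T cells, 283 and 383 CPM in PBS T cells, 172 and 126 CPM in IL-5 microglia and 100 and 60.0 CPM in PBS microglia. Sostdc1 was at 408 and 487 CPM in IL-5 T cells, 396 and 246 CPM in PBS T cells, 69.8 and 196 CPM in IL-5 microglia and 96.7 and 145 CPM in PBS microglia. In these CPM every T cell library was above every microglial one for both genes, as for 25.9% of all genes tested. After TMM scaling both overlapped. The lowest T cell and highest microglial values were then 214 and 269 CPM for Kl and 188 and 240 CPM for Sostdc1. For Sostdc1 the microglial IL-5 libraries were the lowest and the highest of that cell type.

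Folr1 encodes folate receptor alpha, which moves folate across the epithelium, and Prlr encodes the prolactin receptor, a cytokine receptor that signals through JAK2 and STAT5. Folr1 was at 441 and 637 CPM in IL-5 T cells, 308 and 227 CPM in PBS T cells, 123 and 343 CPM in IL-5 microglia and 196 and 227 CPM in PBS microglia. Prlr was at 976 and 541 CPM in IL-5 T cells, 618 and 474 CPM in PBS T cells, 224 and 160 CPM in IL-5 microglia and 99.9 and 127 CPM in PBS microglia. Folr1 overlapped between the cell types, and Prlr did not. Within T cells, Prlr overlapped between IL-5 and PBS.

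Levels of different genes were compared per length of exon. In T cells the mean level was 61478 ± 18683 CPM per kb for Ttr, 3005 ± 689 for Enpp2, 487 ± 168 for Igfbp2 and 216 ± 56.5 for Sostdc1 (SD, n = 4). Folr1 followed at 176 ± 77.9 CPM per kb, Igf2 at 75.7 ± 21.3, Kl at 49.6 ± 17.5 and Prlr at 42.5 ± 14.6 (SD, n = 4). Sostdc1 and Folr1, Igf2 and Kl, and Kl and Prlr overlapped as neighbours in this order. In microglia the order was Ttr at 39743 ± 10453 CPM per kb, Enpp2 at 497 ± 149, Igfbp2 at 361 ± 67.7, Folr1 at 96.8 ± 39.8, Sostdc1 at 71.3 ± 31.4, Igf2 at 38.4 ± 3.32, Kl at 12.3 ± 5.01 and Prlr at 9.94 ± 3.47 (SD, n = 4). There Enpp2 and Igfbp2, Folr1 and Sostdc1, Sostdc1 and Igf2, and Kl and Prlr overlapped.

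The proportions among the members differed between the cell types. Per 1000 counts of Ttr, T cells held 243 ± 22.2 counts of Enpp2 and microglia held 60.4 ± 4.51 (SD, n = 4 each). In T cells this ratio was 221 and 228 with IL-5 and 257 and 266 with PBS, which did not overlap. In microglia it ran from 53.8 to 63.9, so the ranges of the cell types lay far apart. Kl stood at 4.34 to 8.49 per 1000 Ttr counts in T cells and at 1.79 to 3.07 in microglia. Prlr stood at 5.91 to 10.8 in T cells and at 2.50 to 4.0 in microglia. Sostdc1 stood at 4.53 to 6.08 in T cells and at 1.25 to 4.34 in microglia. These ratios did not overlap between the cell types, whereas those of Igfbp2, Igf2 and Folr1 did. Folr1, for example, stood at 4.74 to 6.96 per 1000 Ttr counts in T cells and at 2.20 to 6.79 in microglia. Microglia IL-5 replicate 1 gave the lowest microglial ratio for Folr1, Sostdc1, Igfbp2 and Igf2 and the highest for Kl and Prlr. These ratios are descriptions without a test, since Ttr was chosen for its level. They are not corrected for exon length, 1.19 kb for Ttr and 5.78 to 15.34 kb for Enpp2, Kl and Prlr. Over all genes the median log2 difference, T cells over microglia, was −0.90 under 2 kb and 0.64 from 5 kb. With an offset for exon length, that difference was 1.12 for Ttr, 1.59 for Enpp2, 1.65 for Sostdc1 and 0.79 for Prlr. The part of exon length in these ratios was not tested.

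**Figure D2:**
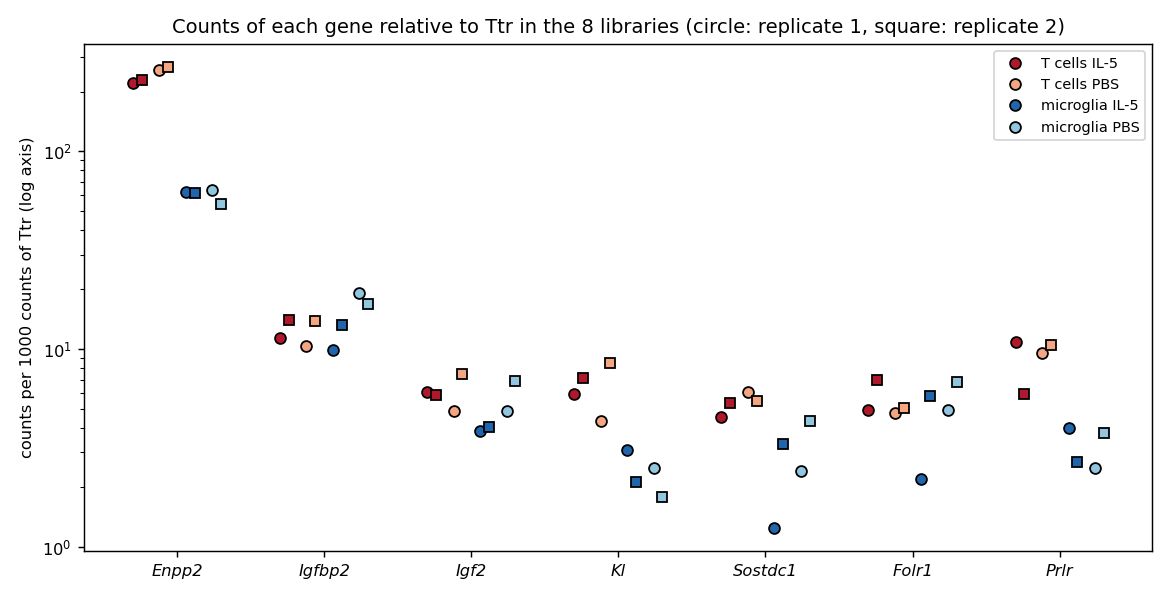
Counts of each of the other 7 genes (horizontal axis) per 1000 counts of Ttr (vertical axis, log scale); each circle or square is replicate 1 or 2 of a group, with T cells left of microglia. The 4 T cell libraries hold 221 to 266 counts of Enpp2 and the microglial libraries 53.8 to 63.9, while Igfbp2, Igf2 and Folr1 overlap.

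The effect of IL-5 on T cells was the first comparison. All 8 members had a higher fitted level in IL-5 T cells than in PBS T cells, with log2 fold changes from 0.52 to 1.05, but none passed an adjusted p of 0.05. In edgeR's quasi-likelihood test with Benjamini-Hochberg adjustment, 0 of 8 members and 0% of the 13897 genes tested were called. At an unadjusted p under 0.05, 6 members were higher, against 2.55% of genes. DESeq2 called 4 members higher, against 2.90% of genes. The median log2 fold change was 0.77 over the members and −0.01 over all genes tested.

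Folr1 had the largest fitted difference, 1.05 (SE 0.27) on the log2 scale, with an adjusted p of 1.00 in edgeR and 0.00223 in DESeq2. Kl differed by 0.88 (SE 0.22), with 1.00 in edgeR and 0.00114 in DESeq2 after adjustment. The adjusted p of Igfbp2 was 1.00 in edgeR and 4.54e-06 in DESeq2, at a log2 difference of 0.88 (SE 0.18). For Igf2, at 0.77 (SE 0.17), it was 1.00 in edgeR and 1.53e-06 in DESeq2. The 4 genes that DESeq2 called are thus the IGF pair, Klotho and the folate receptor. Ttr differed by 0.77 (SE 0.18) and Enpp2 by 0.55 (SE 0.18), with DESeq2 adjusted p of 0.112 and 0.134. Sostdc1 and Prlr had log2 differences of 0.52 (SE 0.28) and 0.52 (SE 0.32).

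The CPM of IL-5 and PBS T cells did not overlap for 7 of 8 members, all but Prlr, with the IL-5 libraries higher. That held for 16.6% of all genes tested. Leaving out T cell IL-5 replicate 1 gave Prlr a log2 difference of 0.015. Without T cell PBS replicate 2, Enpp2 was at 0.32, Sostdc1 at 0.21, Prlr at 0.33 and Ttr at 0.52, and without PBS replicate 1 Enpp2 was at 0.82 and Sostdc1 at 0.92. The summed T cell markers were lower in the same comparison, at 4736 and 5736 CPM in IL-5 T cells and 6914 and 7844 CPM in PBS T cells. None of the 13 passed the edgeR test (0% of genes). At an unadjusted p under 0.05, 4 were lower, beside 245 of all 13897 genes tested. DESeq2 called 4 lower, beside 255 of those genes. Summed oligodendrocyte markers were at 2317 and 2317 CPM in IL-5 T cells and at 1803 and 2853 CPM in PBS T cells, which overlap. Those of leptomeninges and fibroblasts were at 2264 and 2301 CPM in IL-5 T cells and at 1751 and 1575 CPM in PBS T cells. Much of that sum was Ptgds, at 1270 and 1664 CPM with IL-5 and 989 and 769 CPM with PBS. The next most abundant overlapped: Mgp at 409 and 91.7 against 148 and 159 CPM, and Apod at 162 and 347 against 229 and 260 CPM. Of the 9 tested, 6 were above 0 and 3 below. edgeR called 0 of them (0% of genes). At an unadjusted p under 0.05, 1 was higher (2.55% of genes), and DESeq2 called 1 higher (2.90% of genes). The part of these markers in the members' difference was not tested.

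In microglia the members' fitted log2 differences between IL-5 and PBS ran from 0.13 to 1.08. No member passed the threshold in edgeR (0 of 8, against 0% of 13764 genes), 0 of 8 had an unadjusted p under 0.05 (1.79% of genes, higher), and DESeq2 called 0 of 8 (0.131% of genes, higher). Kl had the largest value, 1.08 (SE 0.48, edgeR adjusted p = 0.964), followed by Prlr at 0.96 (SE 0.44), Enpp2 at 0.87 (SE 0.45) and Ttr at 0.81 (SE 0.49). Sostdc1, Folr1, Igf2 and Igfbp2 were between 0.13 and 0.25 with SEs of 0.37 to 0.50, and the 0.13 of Igfbp2 became −0.0054 with library size only. With an offset for exon length, chosen after seeing the data, Ttr was at 0.31 and Prlr at 0.45, while Kl and Enpp2 were at 0.81 and 0.88. The median was 0.53 over the members and −0.02 over all genes.

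Both IL-5 microglial libraries were above both PBS libraries in CPM for Ttr, Enpp2, Kl and Prlr, 4 of 8 members against 15.0% of genes. The result depended on 1 library. Without microglia IL-5 replicate 2, edgeR called Ttr (0.95, adjusted p = 0.0191), Enpp2 (1.01, adjusted p = 0.0448) and Prlr (1.32, adjusted p = 0.0317) higher, among 1255 genes called in all, and the values of Sostdc1 and Folr1 were −0.46 and −0.44. That fit rests on microglia IL-5 replicate 1, the library with most counts outside genes, and assumes that this lone library varies like the PBS pair. Without replicate 1 no member was called. Ttr and Enpp2 then had log2 differences of 0.67 and 0.72, Kl and Prlr only 0.62 and 0.47, and Sostdc1 and Folr1 0.68 and 0.67, so the order of the members also depended on that library. Oligodendrocyte markers summed to 249 and 600 CPM in IL-5 microglia and to 726 and 960 CPM in PBS microglia, lowest in IL-5 replicate 1. Their part in these values was not tested.

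**Figure D3:**
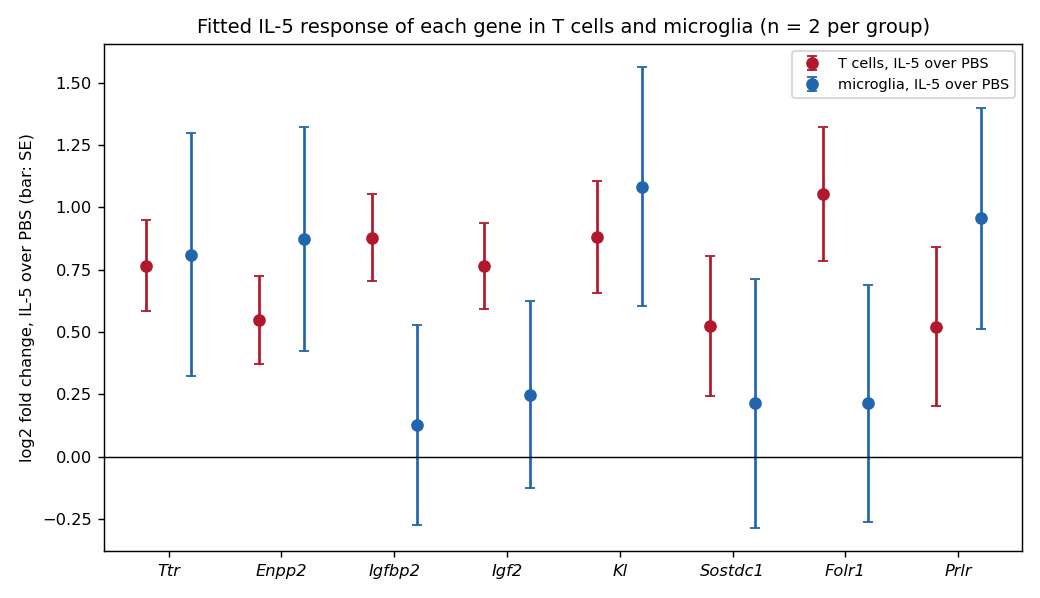
Fitted log2 fold change of IL-5 over PBS (vertical axis) for each member (horizontal axis) in T cells and in microglia, with bars of 1 SE from edgeR. All 16 estimates lie above 0, from 0.52 to 1.05 in T cells and from 0.13 to 1.08 in microglia, where the 0.13 of Igfbp2 becomes −0.0054 with library size only.

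The IL-5 differences of the 2 cell types were compared directly in 1 fit of all 8 libraries. No difference of a member passed the threshold: 0 of 8 were called by edgeR (0% of 15397 genes), 0 at an unadjusted p under 0.05 (3.22% of genes, higher in T cells) and 0 by DESeq2 (1.21% of genes, in either direction). The largest difference of log2 differences, T cells minus microglia, was 0.80 (SE 0.59) for Folr1, followed by 0.71 (SE 0.44) for Igfbp2 and 0.48 (SE 0.42) for Igf2. Ttr was at −0.08 (SE 0.48) and Enpp2 at −0.36 (SE 0.48). With such SEs, differences of this size could not be resolved.

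The level in T cells was then set against that in microglia, averaged over IL-5 and PBS, after TMM scaling for library composition. Enpp2, Prlr and Kl were higher in T cells, 3 of 8 members, against 8.05% of the 15397 genes tested in edgeR, and none was lower (11.4% of genes). Enpp2 was higher by 1.85 (SE 0.25) on the log2 scale, with an edgeR adjusted p of 0.00123. Prlr was higher by 1.34 (SE 0.30, edgeR adjusted p = 0.0139) and Kl by 1.23 (SE 0.29, edgeR adjusted p = 0.0165). DESeq2 called the same count, 3 members, against 14.2% of genes.

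Sostdc1 (0.85, SE 0.32), Igf2 (0.17, SE 0.21), Folr1 (0.04, SE 0.29) and Igfbp2 (−0.39, SE 0.22) did not pass. For Ttr the scaled difference was −0.15 (SE 0.24), given as a description. The ranges of TMM-scaled CPM did not overlap for Enpp2 and Prlr (2 of 8 members, against 14.0% of genes), with T cells higher. On CPM without that scaling, Igf2, Kl and Sostdc1 joined them (5 of 8, against 25.9% of genes). TMM divided T cell libraries by 1.27 to 1.32 and microglial ones by 0.638 to 0.819. The median of all genes was 0.17 with TMM and 0.91 with library size only, where Ttr stood at 0.62 and Igfbp2 at 0.37. With library size only 5 members were called. Most genes leaned towards T cells in that fit, so the count does not set the members apart.

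Exon length moved with this comparison. Over all genes the median log2 difference, T cells over microglia, was −0.90 for exon lengths under 2 kb, 0.05 from 2 to 5 kb and 0.64 from 5 kb. Ttr, Igfbp2 and Sostdc1 are in the shortest class, Folr1 in the middle and Enpp2, Igf2, Kl and Prlr in the longest. The fit with the offset for exon length gave Enpp2 1.59 (edgeR adjusted p = 0.00109) and Prlr 0.79 (0.0459), while Kl at 0.79 no longer passed (0.066). In that fit Sostdc1 was higher in T cells by 1.65 (edgeR adjusted p = 0.00756), and Ttr was at 1.12 and Igfbp2 at 0.40. The direction of Ttr and Igfbp2 between the cell types therefore differed between scalings, as did that of Folr1 (−0.0090 with RLE scaling) and Igf2 (−0.083 with the length offset).

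Beside the main fit, Enpp2 passed in all 17 alternative fits, with log2 differences from 1.59 to 2.62. Kl passed in 11 of these alternatives and Prlr in 12. Kl was lost without microglia PBS replicate 2 (0.98, edgeR adjusted p = 0.102) and without T cell PBS replicate 2 (1.11, 0.053). Prlr was lost without microglia PBS replicate 1 (1.20, edgeR adjusted p = 0.0658) and without T cell IL-5 replicate 1 (1.08, 0.0547). Within treatments, Enpp2 was higher by 1.67 in IL-5 libraries (edgeR adjusted p = 0.023) and by 2.02 in PBS libraries (0.0104), and it was the 1 member called in each. Among markers of other brain cells, those of oligodendrocytes summed to 1803 to 2853 CPM in T cells and 249 to 960 CPM in microglia. Ependymal markers summed to 984 to 1411 CPM in T cells and 523 to 802 CPM in microglia. Much of that sum was Pltp, at 598 to 759 CPM in T cells and 43.6 to 602 CPM in microglia, which overlap. After TMM scaling 9 of the 13 ependymal markers were above 0 and 4 below. edgeR called 1 higher in T cells (8.05% of genes) and 0 lower (11.4% of genes). Summed markers of endothelium, leptomeninges and fibroblasts, astrocytes and neurons overlapped between the cell types. For endothelium edgeR called 4 of 10 higher in T cells and 1 lower. Neuronal markers leaned to microglia, with 1 above 0 and 7 below, as did those of leptomeninges and fibroblasts, with 5 above and 8 below. The part of these markers in the members' differences was not tested.

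**Figure D4:**
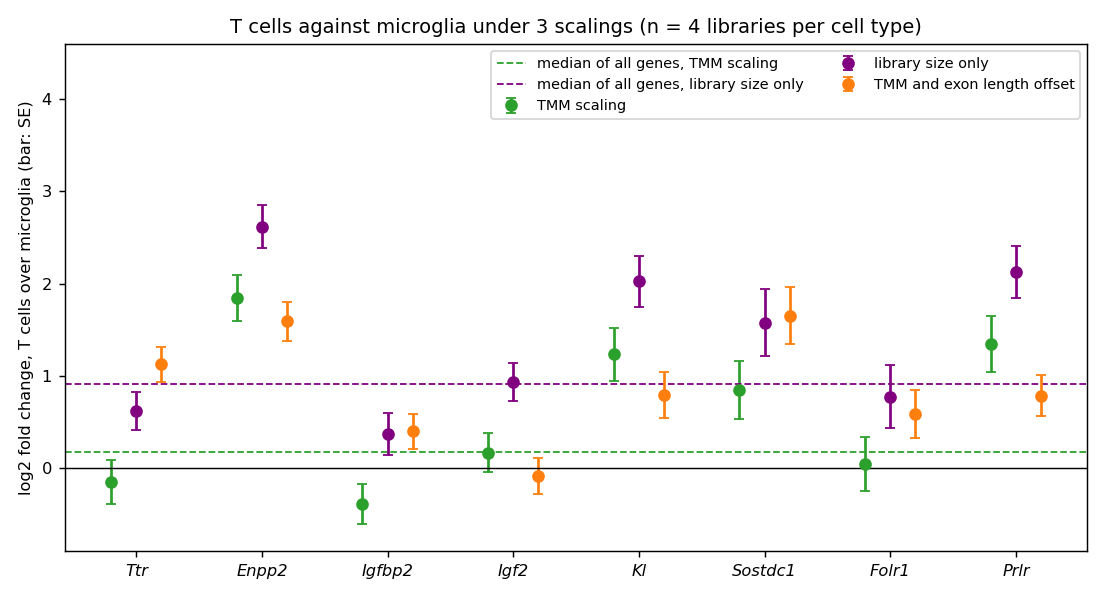
Fitted log2 fold change of T cells over microglia (vertical axis) for each member (horizontal axis) with TMM scaling, library size only, and TMM with an offset for exon length; bars are 1 SE and dashed lines the medians of all genes, 0.17 with TMM and 0.91 with library size only. Enpp2 lies between 1.59 and 2.62 in all 3 fits, while Ttr is at −0.15, 0.62 and 1.12.

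Other genes of the choroid plexus epithelium were also detected in every group. The 20 others on the marker list summed to 6431 and 7025 CPM in IL-5 T cells, 4745 and 3556 CPM in PBS T cells, 1872 and 2493 CPM in IL-5 microglia and 1684 and 1454 CPM in PBS microglia. None was at 0 in all libraries. For IL-5 against PBS in T cells their median log2 difference was 0.78, with 0 of 20 called by edgeR (0% of genes). At an unadjusted p under 0.05, 7 were higher (2.55% of genes), and DESeq2 called 6 higher (2.90% of genes). In microglia the median was 0.65, with 0 of 20 called by edgeR (0% of genes). There 1 was higher at an unadjusted p under 0.05 (1.79% of genes), and DESeq2 called 0 (0.131% of genes, higher). Between T cells and microglia, without the offset for exon length, edgeR called 8.05% of all genes higher in T cells and 11.4% lower. Of the 20, it called 7 higher and none lower. They were Kcnj13 (1.57), a potassium channel, Trpm3 (1.59), a cation channel, Cldn2 (1.63), a tight junction protein, Krt18 (1.66), a keratin, F5 (1.81), coagulation factor V, Sulf1 (2.13), a heparan sulfatase, and Slc13a4 (2.44), a sulfate transporter.

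**Figure D5:**
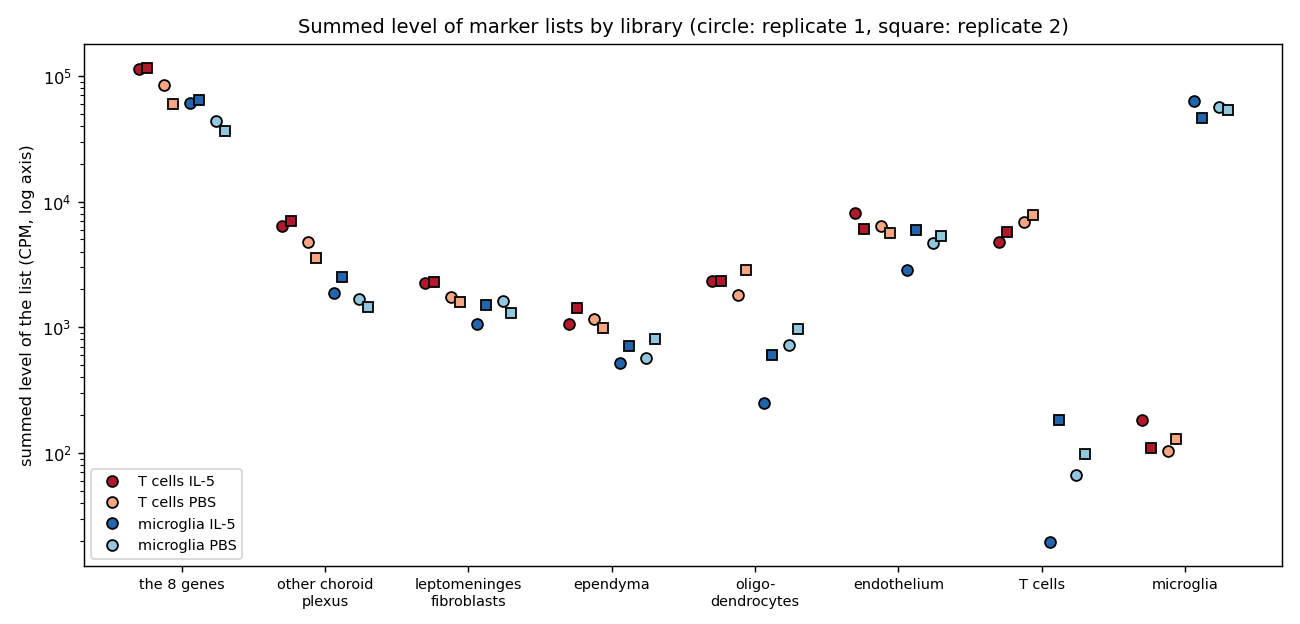
Summed level of marker lists (vertical axis, CPM, log scale) by list (horizontal axis); each circle or square is replicate 1 or 2 of a group, with IL-5 left of PBS and T cells left of microglia. The 20 other choroid plexus genes sum to 3556 to 7025 CPM in T cells and 1454 to 2493 CPM in microglia, and the T cell markers are lower in IL-5 than in PBS T cells.

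Of the members' pathway partners, 0 genes of the 7 lists passed in edgeR in either IL-5 comparison, against 0% of all genes. In T cells DESeq2 called 1 thyroid hormone and retinol transport gene higher with IL-5 and 1 prolactin signalling gene lower. That stood beside 403 genes higher and 255 lower of 13897. In microglia it called 1 LPA gene and 1 BMP and Wnt gene lower, beside 18 genes higher and 49 lower of 13764. Between T cells and microglia edgeR called some partners, against 8.05% of genes higher in T cells and 11.4% lower. Of 12 genes of LPA production and reception, 4 were lower in T cells. They included the LPA receptor gene Lpar6 (98.0 to 216 CPM in T cells, 204 to 243 CPM in microglia, −1.34) and the lipid phosphatases Plpp1 (−0.85) and Plpp2 (−2.60). Before TMM scaling Plpp1 overlapped, at 195 to 257 CPM in T cells and 189 to 346 CPM in microglia. The fourth was the phospholipase Liph, at 0 to 0.039 CPM in T cells and 22.0 to 74.6 CPM in microglia.

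Of 12 insulin-like growth factor genes tested, 1 was lower in T cells, beside 11.4% of all genes. It was Igfbp6, at 0 to 2.07 CPM in T cells and 2.17 to 18.0 CPM in microglia. H19, the noncoding neighbour of Igf2, had 0 counts in all libraries, as did Klb and Fgf23. The floor of 3 counts allows at most 0.127 CPM, for counting error only. Of 3 Klotho and FGF genes and 17 BMP and Wnt genes tested, none passed; Fgfr2, an FGF receptor, was at 24.7 to 59.3 CPM in T cells and 3.06 to 15.9 CPM in microglia. Of 15 folate genes, Izumo1r, the gene of folate receptor 4 of T cells, was higher in T cells at 6.06 to 38.9 CPM, against 0 to 2.13 CPM in microglia. Slc46a1, the proton-coupled folate transporter, was lower in T cells (21.8 to 35.0 CPM, against 5.52 to 162 CPM in microglia, −2.50).

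Of 12 genes of prolactin receptor signalling, 3 were higher in T cells (8.05% of all genes) and 1 was lower (11.4% of all genes). Jak2, the receptor's kinase, was at 35.0 to 102 CPM in T cells and 6.90 to 16.0 CPM in microglia (1.92). Stat5b, its transcription factor, was at 73.4 to 98.0 CPM in T cells and 10.6 to 21.8 CPM in microglia (1.62). Cish, a feedback inhibitor that STAT5 induces, was at 166 to 342 CPM in T cells and 2.85 to 24.2 CPM in microglia (3.65). Socs3, another feedback inhibitor, was lower in T cells (23.7 to 83.0 CPM, against 76.8 to 300 CPM in microglia, −2.74). These genes also serve cytokine receptors of lymphocytes.

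Genes whose pattern over the 8 libraries was most like a member's were sought by Pearson's r on TMM-scaled log2 CPM, among 11468 genes with a mean of at least 5 CPM. The libraries form 2 cell types, share their depth and composition within each, and give these values as a description only. For Ttr the nearest was 1500015O10Rik (r = 0.992), a marker on the choroid plexus list, and then Spint2 (0.988), a serine protease inhibitor. For Enpp2 it was Ncoa2 (0.997), for Folr1 Wfdc2 (0.978) and for Prlr Trpm3 (0.981), and both Wfdc2 and Trpm3 are on that list. Igfbp2 was most like Adipor2 (0.990), Kl like Eif2d (0.977), Sostdc1 like Usp33 (0.965) and Igf2 like Acox2 (0.943). Between members, Ttr and Enpp2 had an r of 0.227 over the 8 libraries and of 0.969 once each cell type's mean was removed, a step added after seeing the data. With the means removed Sostdc1 and Folr1 stood at 0.898, Enpp2 and Kl at 0.859 and Ttr and Kl at 0.831. The lowest pairs were Kl and Sostdc1 at −0.095, Folr1 and Prlr at −0.0012 and Sostdc1 and Prlr at 0.016. All other pairs lay in between, so the members did not all vary together.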

How the data were processed

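The deposited table holds raw read counts per gene for 8 libraries. The submitters' processing notes name the aligner STAR 2.5.3a and build mm10/GRCm38, and further list DESeq2 1.1, Cufflinks 2.0, FastQC 1.0.0 and bcl2fastq 2.20.0.422; the counting tool, its strand setting and any filter are not given in the sources used here. Of 24953 entries, 2 summary entries and 27 genes with unreadable counts were left out, 26 of them under names turned into dates. CPM was computed from the counts assigned to the 24924 genes kept. The members, gene lists and tests were chosen with earlier results of these data known.

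Counts were fitted with edgeR 4.0.16 (R 4.3.3; TMM scaling, filterByExpr with a minimum count of 10, robust quasi-likelihood test, Benjamini-Hochberg adjustment over all genes tested, threshold 0.05). IL-5 was set against PBS within each cell type, and the cell types and the difference of IL-5 effects were tested in 1 fit of all 8 libraries. Alternatives were DESeq2 1.42.0, RLE or no scaling, other filters, each library left out, a replicate block and, added after seeing the data, an offset from a lowess curve on exon length. The procedure was tested on simulated data. Genes named are the members, the 5 genes most like each and the 3 most abundant of each list by rule; list genes called between cell types, and H19, Klb and Fgf23, were named after their values were seen. Exon lengths and positions come from GENCODE M21 and promoters from RefSeq. Results for some list genes are not reported here.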

Additional observations from a re-analysis of the deposited data

How the results depend on the processing

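Groups hold 2 libraries each, so precision is limited by replication rather than depth, and intervals or floors cover counting error only. The IL-5 comparisons kept a count of 0 members in edgeR under other scalings, filters and the length offset. For T cells, DESeq2 called 4 members and 658 genes, and 2 genes were called with no filter and 2 with all 8 libraries in 1 fit; leaving out a library gave 0 to 1 gene. For microglia, DESeq2 called 67 genes, and leaving out a library gave 0 to 3 members and 0 to 1255 genes, the highest without IL-5 replicate 2. For the difference of IL-5 effects, DESeq2 called 187 genes, no filter 31 and leaving out a library 0 to 232.

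For T cells against microglia, library size only gave 5 members, with the median log2 difference of all genes at 0.91. The IL-5 and the PBS libraries alone gave 1 member each, with 1266 and 1105 genes. DESeq2 called 4760 genes, and leaving out a library gave 2 to 4 members and 1986 to 3634 genes. The libraries share replicate numbers only: over genes, replicate differences of IL-5 and PBS correlated at 0.011 in T cells and 0.01 in microglia, and those of T cells and microglia at 0.019 with IL-5 and 0.016 with PBS. With a replicate block no member was called in either IL-5 comparison, and between the cell types 1 member and 1174 genes were called, and Kl was at 0.71 and Prlr at 1.5 with edgeR adjusted p of 0.254 and 0.0721. The members' sum without Ttr was 2.06% of gene counts in T cells (9.35% with it) and 0.437% in microglia (5.15% with it).

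Directions changed for several small log2 values, and the cause was not tested. With library size only, Igfbp2 in microglia was −0.0054, the Ttr difference of IL-5 effects 0.071, and Ttr and Igfbp2 between cell types 0.62 and 0.37. With the length offset, the differences of IL-5 effects were 0.29 for Ttr, 0.15 for Kl and 0.23 for Prlr, and the cell type values 1.12 for Ttr, 0.40 for Igfbp2 and −0.083 for Igf2. Folr1 between cell types was −0.0090 with DESeq2, −0.0090 with RLE, −0.019 with no filter, −0.055 with the filter at 5 CPM and −0.36 in PBS libraries, where Igf2 was −0.073. With single libraries left out, microglial IL-5 values ranged from −0.082 to 0.36 for Igfbp2, −0.46 to 0.68 for Sostdc1 and −0.44 to 0.67 for Folr1. Differences of IL-5 effects ranged from −0.31 to 0.21 for Ttr, −0.70 to 0.26 for Kl, −0.17 to 0.91 for Sostdc1 and −0.98 to 0.034 for Prlr, and the cell type value of Folr1 from −0.24 to 0.29.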
